A study of Homo sapiens with 12 samples.

Results

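Gene expression in MRC5 fibroblasts made senescent by irradiation was compared with that in proliferating MRC5 fibroblasts. The comparison takes the 3 libraries labelled senescence by irradiation, called Sen(IR), and the 3 labelled proliferative, called Prol, which are 6 of the 12 libraries of the series. Every gene of the count table entered it: 57500 genes were listed and 16251 passed a filter on low counts. MRC5 is a fibroblast line from human embryonic lung. Prol cells were growing cells, for which the labels name no irradiation or inhibitor. Sen(IR) cells had received 20 Gy of X-rays and were collected 10 to 12 days later, with no inhibitor. The other 6 libraries came from irradiated cells given CTPI2 or UK5099, inhibitors of the mitochondrial citrate and pyruvate carriers. They entered the filter on low counts, the scaling of libraries and the estimate of the spread between libraries. All libraries came from a single cell line under a single radiation dose, and the labels do not say whether the 3 libraries of a group came from separate cultures. For RNA sequencing, the paper's legends state 3 independent experiments in the CTPI2 figure and 3 independent conditions in the UK5099 figure. The p-values measure the spread between these libraries only.

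Cellular senescence is a durable exit from the cell cycle that follows lasting DNA damage. Senescent fibroblasts enlarge, flatten, keep an active metabolism, expand their lysosomes and release cytokines, chemokines and proteases, the senescence-associated secretory phenotype (SASP). Fibroblasts of the lung make collagen, elastin and other matrix, anchor to it through integrins and pull on it with actin and myosin. The genes described are, with the exception of the abundant IGFBP5, those outside the SASP families and the histones: the most abundant transcripts, the largest changes, and the surface, matrix, contractile, metabolic, transcription factor and noncoding genes.

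Levels are given in CPM, counts scaled to a common library total after TMM normalization (trimmed mean of M values), in the order of replicates 1, 2 and 3, and are shares of each library's RNA, so that no value is an amount per cell. In bulk RNA a smaller number of cells of a kind and less of a transcript per cell cannot be told apart. Library totals ran from 24289488 to 28245693 counts in Prol and from 20597736 to 22693608 in Sen(IR), where 3 counts, taken as the counting floor of a library, equal 0.123 and 0.141 CPM on average. More genes exceeded 1 CPM in Sen(IR) (13384 to 13462) than in Prol (13027 to 13048). Pairs of Prol libraries differed by 7.75 to 12.9 times the counting noise and pairs of Sen(IR) libraries by 2.25 to 3.28 times (chi-square per gene). All 12 defining genes of fibroblasts looked for passed the filter. Of the defining genes of other cells, 4 of 14 epithelial, 5 of 11 endothelial and 1 of 14 blood genes passed the filter. The epithelial genes summed to 1.25 to 1.66 CPM in Prol and 3.08 to 3.74 CPM in Sen(IR), and the single blood gene, CD14, to 0.149 to 0.256 and 2.89 to 3.65 CPM. Among the endothelial genes only the angiopoietin receptor gene TEK exceeded 10 CPM, at 154, 199 and 164 CPM in Prol and 354, 366 and 361 in Sen(IR), while CDH5 and PECAM1 did not pass the filter.

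Sen(IR) and Prol differed in 7677 of the 16251 genes tested (47.2%), of which 4033 (24.8%) were higher and 3644 (22.4%) lower in Sen(IR). The counts of rises and falls in each gene list are to be read against these shares. A gene was called higher or lower, or said to rise or fall, where its edgeR adjusted p was under 0.05 and its log2 fold change exceeded 0.5 in size. Where a gene is said to rise or fall by a number without a unit, the number is its log2 fold change. The 3 Sen(IR) libraries did not overlap with the 3 Prol libraries for 11516 genes (70.9% of those tested). The median log2 fold change over all genes tested was 0.01. With the size required to exceed 1 there were 4030 genes, 2387 higher and 1643 lower. Large changes were more often rises than falls: 374 called genes rose and 206 fell by more than 3 on the log2 scale, and 102 rose and 6 fell by more than 5. For 293 genes no Prol library exceeded 3 counts, and 269 of these were called higher. In every Sen(IR) library 27 genes were that low, 24 of them called lower. Genes low in Prol could pass the filter through any irradiated group, and genes low in Sen(IR) through Prol or an inhibitor group. Fitted fold changes of such genes are no measure of size, so those named are given as bounds against the floor of 3 counts in the mean library of the group. The counts of changes over 3 and 5 above and the list medians use fitted values, with those of such genes included.

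**Figure D1:**
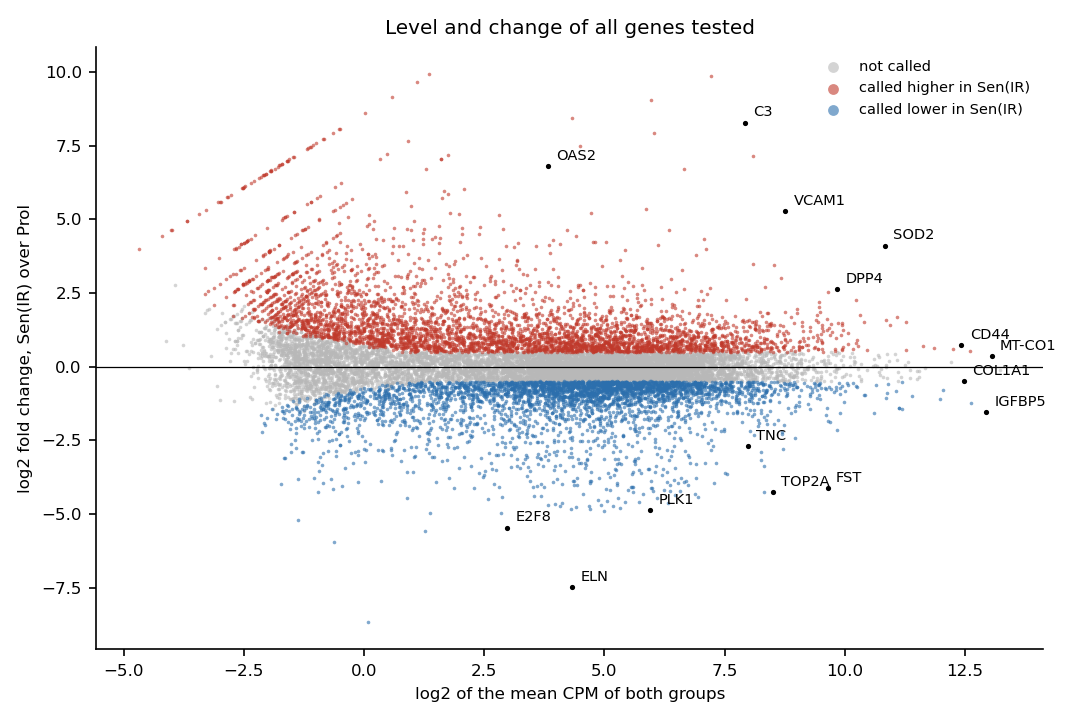
Each point is a gene tested, plotted by the log2 of its mean CPM over both groups (x axis) and its log2 fold change in Sen(IR) over Prol (y axis), coloured by whether it was called. C3 at 8.28 and ELN at -7.48 are the ends among the labelled genes, and the slanting rows at the upper left are genes with few or no counts in Prol.

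Reads in exons shared by overlapping genes could belong to either gene, and of the genes named here with no such remark, MCM2, IFI6, ICAM1, LOXL3, ACAT2, EBP, TK2, MPC2, MIR17HG, IRF1-AS1 and GASK1B-AS1 share over 20% of their exon length. The most abundant transcripts in both groups were those of the mitochondrial genome, the translation machinery, the cytoskeleton and the matrix. The 10 leading genes held 6.62% of the tested counts in Prol and 6.03% in Sen(IR), with 7 genes shared, and the 100 leading genes had 66 in common. IGFBP5, which encodes an insulin-like growth factor binding protein of the matrix, led in Prol at 11780, 12500 and 10590 CPM and stood at 4021, 4102 and 3858 CPM in Sen(IR), a log2 fold change of -1.54 ± 0.06 (SE, n = 3 per group; edgeR adjusted p = 2.9e-16). The cytoplasmic actin gene ACTB read 8637, 8540 and 9502 CPM in Prol and 3796, 3853 and 3680 CPM in Sen(IR), and ACTG1 5469, 5143 and 5910 and 2555, 2574 and 2545 CPM. Every Sen(IR) library was below every Prol library for these genes and for VIM, the intermediate filament gene of mesenchymal cells, which fell by 0.79 from 5304 ± 417 CPM (mean ± SD, n = 3) to 3063 ± 59.8 CPM. Of VIM's exon length 24.6% also lies in VIM-AS1 and another overlapping gene.

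The upper ranks of Sen(IR) held adhesion and matrix transcripts. CD44, the hyaluronan receptor, rose from 4030, 4168 and 4148 to 6863, 6883 and 6813 CPM (log2 fold change 0.74 ± 0.04, edgeR adjusted p = 6.7e-13). FN1, which encodes fibronectin, rose from 3849 ± 305 to 5840 ± 317 CPM, and ITGB1, the shared beta chain of the fibronectin and collagen receptors, from 2902 ± 109.7 to 4501 ± 24.4 CPM. FTL, the light chain of the iron store ferritin, read 2241, 2471 and 2544 CPM in Prol and 3865, 3917 and 3989 CPM in Sen(IR). Per kilobase of exon FTL was among the 10 highest genes of both groups, with 2777 and 4505 CPM per kilobase, in company with TMSB10, a small actin-binding protein gene, and mitochondrial genes. The 2 chains of type I collagen went apart: COL1A2 had a log2 fold change of 0.53 ± 0.07 and COL1A1 of -0.50 ± 0.06. The call of COL1A2 was lost without Prol replicate 1 (0.47) or replicate 3 (0.49), and COL1A1 lay at the limit, below it in the fit of all libraries and past it at -0.52 in the 6 libraries alone. The elongation factor gene EEF1A1 (-0.10, and 0.02 when libraries were scaled by the upper quartile of their counts, here called upper-quartile scaling) and the mitochondrial MT-CO1 (0.36) and MT-ND4 (0.16) were not called.

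**Figure D2:**
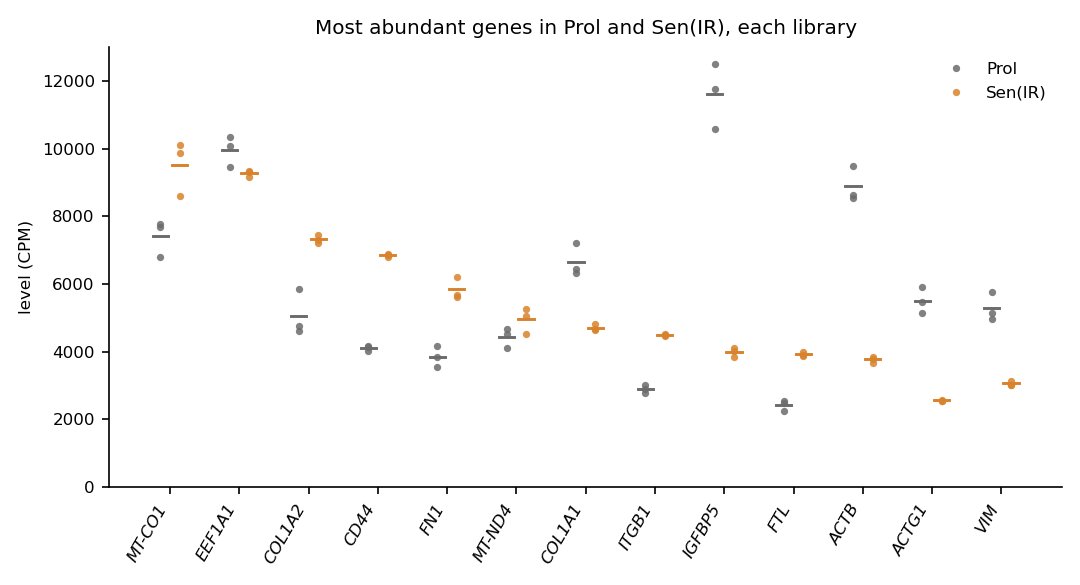
Level in CPM (y axis, from 0) of the genes that rank in the first 10 of Prol or Sen(IR), with a point per library and a bar at the mean of 3. IGFBP5, ACTB, ACTG1 and VIM are lower in all 3 Sen(IR) libraries, and CD44, FN1, ITGB1 and FTL are higher in all 3.

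Outside the SASP families and histones, the 12 largest rises were those of C3, OAS2, VCAM1, ATP8B4, PDK4, IFI44L, AK4, IFI6, BHLHE41, ADAMTS19, ITIH5 and SULF2. They were taken among the 2548 called genes with a mean log2 CPM over 1 and no overlap between groups, and 11 SASP or histone genes that ranked among them are not described. C3, the central complement component (ENSG00000125730, chr19:6677704-6730562), read 1.53, 1.2 and 1.86 CPM in Prol and 480.2, 496 and 475 CPM in Sen(IR), a log2 fold change of 8.28 ± 0.09 (edgeR adjusted p = 1.8e-25). VCAM1, an adhesion receptor for leukocyte integrins, read 16.1, 31.3 and 18.1 CPM in Prol and 829, 874 and 832 CPM in Sen(IR), or 38.7 times the Prol level. Both genes were high in all 3 Sen(IR) libraries and low in all 3 Prol libraries, with Prol replicate 2 the highest for VCAM1. The interferon-induced genes OAS2, an RNA sensor, IFI44L and IFI6 rose by 6.81, 4.67 and 4.63, and they were uneven among Sen(IR) libraries, OAS2 at 37.9, 19.9 and 26 CPM and IFI44L at 19.3, 9.53 and 14 CPM, with replicate 1 the highest for both. ATP8B4, a phospholipid flippase gene, rose from 1.02, 2.06 and 1.08 to 51.1, 53.1 and 48.8 CPM. AK4, a mitochondrial adenylate kinase gene, rose from 1.45, 1.55 and 1.3 to 34.6, 34.5 and 38.5 CPM, and PDK4, a kinase that switches off pyruvate dehydrogenase, from 0.213, 0.73 and 0.223 to 10.8, 10.1 and 9.91 CPM. The remaining leading rises were BHLHE41, a transcriptional repressor of the circadian clock (4.51), the matrix protease gene ADAMTS19 (4.33), ITIH5, of a family that links hyaluronan (4.29), and SULF2, which trims sulfate groups from heparan sulfate (4.23). These 4 genes stood in Sen(IR) at 10, 257, 29.2 and 51.5 CPM on average.

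Among the 12 largest falls, 10 were genes of cell division, and the largest was ELN, the gene of elastin. ELN (ENSG00000049540, chr7:74027789-74069907) read 45.9, 31.5 and 42.3 CPM in Prol and 0.267, 0.237 and 0.147 CPM in Sen(IR), a log2 fold change of -7.48 ± 0.22 (edgeR adjusted p = 6.4e-18). No Prol library came near the Sen(IR) values, all of which lay close to the counting floor. E2F8, a repressor of the E2F family that acts in S phase, fell by 5.46 from 16.9, 13.2 and 16.2 to 0.356, 0.379 and 0.294 CPM. The kinetochore and spindle genes NUF2, SKA1, SPC25, KIF18B and KIF14, the mitotic kinase genes PLK1, AURKB and NEK2, and the cell-cycle transcription factor gene MYBL2 had log2 fold changes between -4.89 and -4.72. PLK1, which drives entry into and exit from mitosis, read 124, 104 and 129 CPM in Prol and 4.4, 3.7 and 4.02 CPM in Sen(IR). HBE1 is counted here as uncertain, since 90% of its exon length lies in other genes of its locus. The 12 genes were separated between groups in all 6 libraries, as the choice of genes required.

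Short elements are known in promoters of genes of late cell cycle: the cell cycle genes homology region (CHR), searched as TTTGAA or TTCGAA on either strand, and the CCAAT box, searched as CCAAT on either strand. RefSeq promoters (GRCh38.p14, 250 bases before to 50 after a start) were at hand for 9 of the 12 genes of the largest falls, with 10 starts, of which 6 held a CHR. A CHR stood in 78 of 191 promoters (40.8%) of genes that fell by more than 3 on the log2 scale, in 54 of 362 (14.9%) of genes that rose by more than 3, in 12.3% of 16904 promoters of genes tested and in 16.4% of all 35116 promoters. Both elements stood together in 57 of those 191 promoters (29.8%), in 4.85% of promoters of genes tested and in 6.38% of all. Over all genes called lower the shares were smaller, 14.7% of 3942 promoters with a CHR and 7% with both elements. The promoters of PLK1 and KIF18B, the largest falls with both elements in the window shown, are shown from 130 bases before to 20 after the start, 5′ to 3′ along the gene, with the elements in capitals; PLK1 is at chr16:23678759-23678908 on the plus strand and KIF18B at chr17:44947754-44947903 on the minus strand.
PLK1: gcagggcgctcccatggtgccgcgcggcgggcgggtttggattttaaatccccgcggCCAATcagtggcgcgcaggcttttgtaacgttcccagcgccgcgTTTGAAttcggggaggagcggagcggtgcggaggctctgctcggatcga
KIF18B: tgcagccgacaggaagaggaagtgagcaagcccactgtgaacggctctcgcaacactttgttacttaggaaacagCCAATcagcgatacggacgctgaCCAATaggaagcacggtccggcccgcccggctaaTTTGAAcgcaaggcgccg
In PLK1 the CHR began 29 bases and the CCAAT box 73 bases before the start. In KIF18B the CHR began at base 3 after the start, with CCAAT boxes 55 and 32 bases before it. A match of letters is a description of these windows, and binding was not measured.

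By difference in CPM the ranking was another, and SOD2 led it. SOD2, the manganese superoxide dismutase of mitochondria, read 192, 204 and 204 CPM in Prol and 3406, 3354 and 3590 CPM in Sen(IR), 17.2 times the Prol level (edgeR adjusted p = 2e-22). Its identifier in the table is not in GENCODE v44, so its position and overlaps were not used here. RTN4, which shapes tubules of the endoplasmic reticulum, rose from 1288 ± 50.3 to 3660 ± 55.2 CPM, and CCND1, which encodes cyclin D1 of G1 phase, from 1164, 877 and 1077 to 3348, 3371 and 3210 CPM. QSOX1, a secreted enzyme that forms disulfide bonds in matrix proteins, rose from 933 ± 191 to 2774 ± 83.9 CPM, and TRPA1, a calcium channel gated by reactive compounds, from 1064 ± 124 to 2858 ± 46.5 CPM. For each of these genes the lowest Sen(IR) library lay above the highest Prol library. The largest losses in CPM, after IGFBP5, ACTB and ACTG1, included the tropomyosin gene TPM4 (3406 ± 123 to 1259 ± 19.2 CPM), the tubulin gene TUBB (2339 ± 148 to 794 ± 12 CPM), and FST. FST, the secreted antagonist of activin, read 1579, 1333 and 1611 CPM in Prol and 82.2, 87.5 and 88.4 CPM in Sen(IR) and fell by 4.13 on the log2 scale (edgeR adjusted p = 8.4e-22).

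All 14 genes taken as a check of the arrest were called, 2 higher and 12 lower. The CDK inhibitor genes CDKN1A (p21) and CDKN2B (p15) rose by 1.74 and 1.35, whereas CDKN2A read 7.29, 6.91 and 8.37 CPM in Prol and 3.52, 3.51 and 5.2 CPM in Sen(IR) (-0.89 ± 0.17, edgeR adjusted p = 6.7e-05); the count covers its p16 and ARF transcripts together, and 15.3% of its exon length is shared with CDKN2B-AS1. LMNB1, the lamin of the nuclear envelope whose loss marks senescent cells, read 164, 160.5 and 182 CPM in Prol and 8.59, 8.3 and 7.85 CPM in Sen(IR). The chromatin proteins HMGB1 and HMGB2 had log2 fold changes of -1.96 ± 0.05 and -3.32 ± 0.06. Of 30 targets of p53, the transcription factor of the DNA damage response, 21 rose and 2 fell, with a median log2 fold change of 1.00 against 0.01 over all genes tested. TP53INP1, CYFIP2 and BTG2 led the rises at 2.31, 2.23 and 1.93, while AEN, an exonuclease gene, and BAX, a death effector, were the members called lower at -0.80 and -0.54; the call of BAX was lost with upper-quartile scaling (-0.42). GDF15 and MDM2 were among the members that rose.

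**Figure D3:**
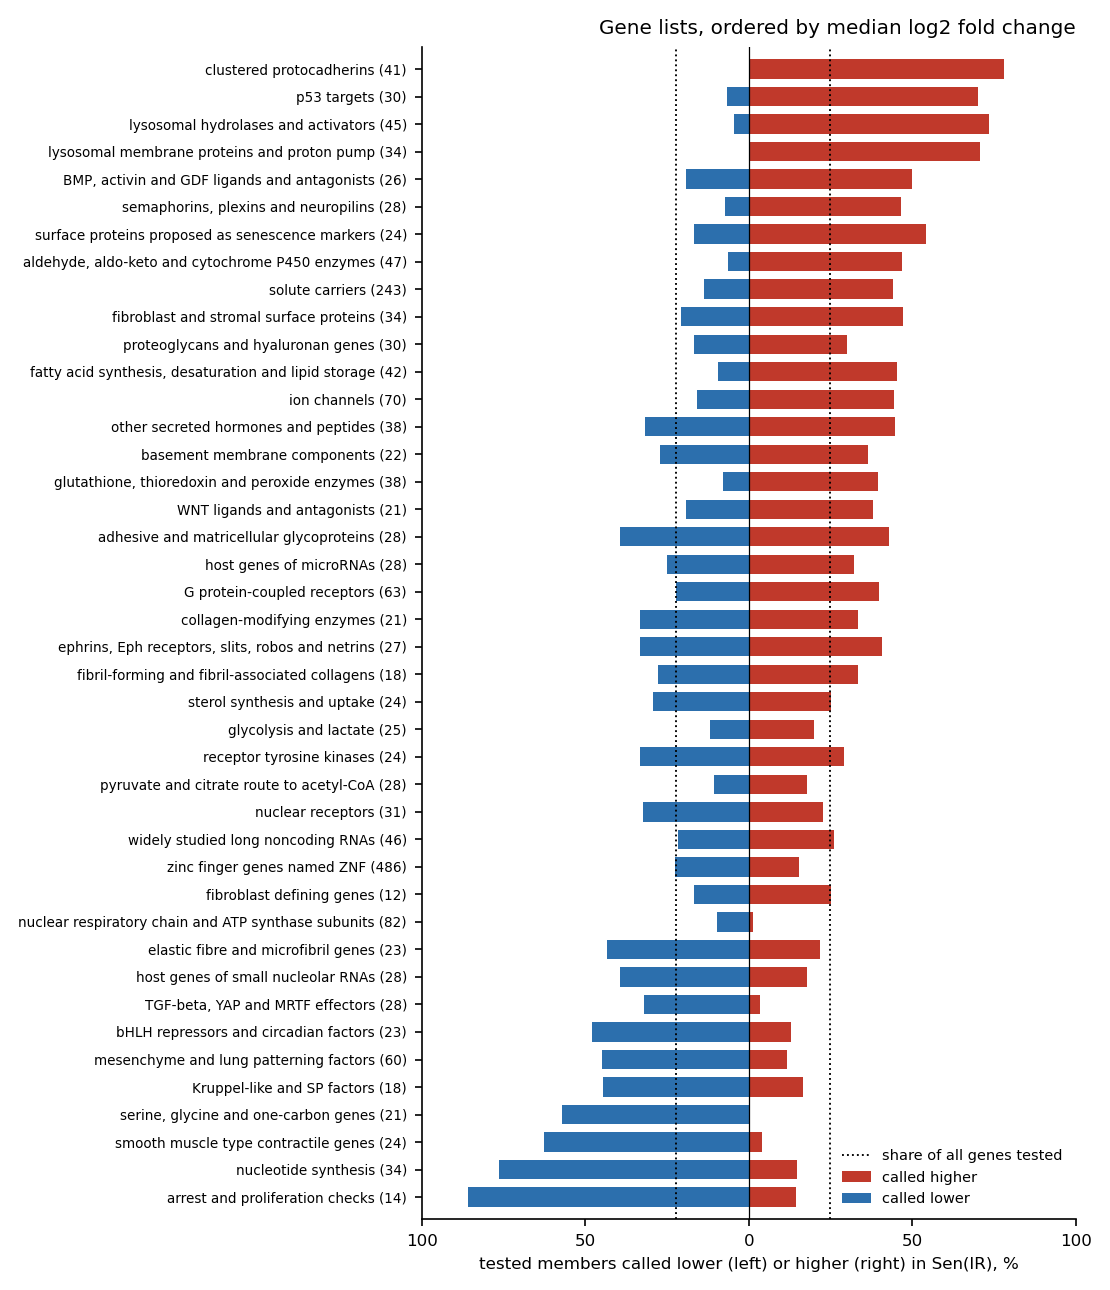
For each gene list, the share of tested members called higher (bars to the right) or lower (bars to the left) in Sen(IR), in percent, with the number tested in parentheses and the lists ordered by median log2 fold change. Dotted lines mark 24.8% higher and 22.4% lower, the shares over all genes tested; protocadherins, p53 targets and lysosomal genes stand at the top, nucleotide synthesis and contractile genes near the bottom.

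At the cell surface, VCAM1, DPP4 and ICAM1 rose, and the checkpoint ligand genes CD274 and PDCD1LG2 fell. Of 34 genes listed for the surface of fibroblasts and other stroma, 16 rose (47.1%) and 7 fell (20.6%), with a median of 0.38. Besides VCAM1, the leading rises were DPP4, a dipeptidase that has been used to isolate senescent fibroblasts, at 226, 309.6 and 232 CPM in Prol and 1569, 1574 and 1577 CPM in Sen(IR) (2.62 ± 0.08, edgeR adjusted p = 8.8e-18), and ICAM1 (63.3 ± 0.815 to 304 ± 3.23 CPM), a ligand of leukocyte integrins. The falls of the list were led by S100A4, which encodes a calcium-binding protein that is not itself a surface protein (-1.32). It was followed by MCAM, an adhesion molecule of perivascular cells (-1.20, 439 ± 15.5 to 192 ± 2.3 CPM), and MME, the membrane peptidase neprilysin (-0.94). DPP4 and ICAM1 each kept the 3 Sen(IR) libraries within a narrow range and far above Prol.

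Of 24 surface proteins that have been proposed as markers of senescent cells, 13 rose (54.2%) and 4 fell (16.7%), with a median of 0.58. Over all genes tested 24.8% rose and 22.4% fell. BST2, a membrane tether of viruses, was at most 3 counts in every Prol library and read 4.94, 2.46 and 3.43 CPM in Sen(IR), at least 29.4-fold higher. CD36, a scavenger and fatty acid receptor, read 0.682, 1.03 and 0.632 CPM in Prol and 9.16, 10.5 and 10.2 CPM in Sen(IR). In the other direction, CD274, which encodes the checkpoint ligand PD-L1, read 52.8, 35.9 and 49.5 CPM in Prol and 6.01, 4.79 and 6.82 CPM in Sen(IR) (-2.97 ± 0.14, edgeR adjusted p = 1.7e-14). PDCD1LG2, its paralog PD-L2, and PLAUR, the urokinase receptor used as a target against senescent cells, fell, with log2 fold changes of -1.24 and -0.86. These 3 genes were lower in each Sen(IR) library than in any Prol library.

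**Figure D4:**
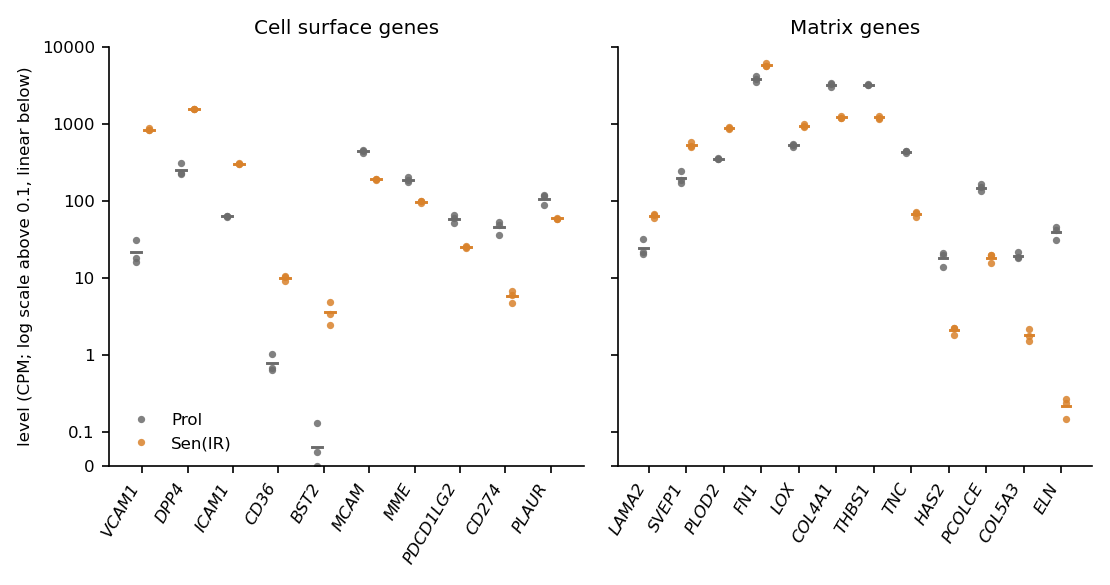
Level in CPM (y axis, logarithmic above 0.1 and linear below) of surface genes (left) and matrix genes (right) chosen from the named genes, with a point per library and a bar at the mean of 3. VCAM1, DPP4, ICAM1, CD36 and BST2 are higher in Sen(IR), MCAM, MME, PDCD1LG2, CD274 and PLAUR lower; among matrix genes ELN has the widest gap, from 39.9 to 0.217 CPM.

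Of 24 receptor tyrosine kinases 7 rose and 8 fell, a median of 0.00. These shares, 29.2% and 33.3%, lie near the 24.8% and 22.4% of all genes tested and are no result about the list. Its members included the collagen receptor DDR1 (21.4 ± 2.74 to 72 ± 0.839 CPM) and TEK among the rises and FGFR4 (-1.81) and AXL (-1.52) among the falls. AXL, the receptor for GAS6, read 765, 677 and 785 CPM in Prol and 259.5, 266 and 251 CPM in Sen(IR). Of 63 G protein-coupled receptors 25 rose (39.7%) and 14 fell (22.2%), against 24.8% and 22.4% of all genes tested. The adhesion receptor gene ADGRL2 rose from 17.1, 25 and 15.6 to 123, 127 and 124 CPM and AGTR1, the angiotensin receptor, from 1.02, 1.29 and 1.34 to 7.25, 7.25 and 7.99 CPM, whereas OXTR, the oxytocin receptor, read 130.2, 92.5 and 125 CPM in Prol and 18.5, 17.8 and 16.1 CPM in Sen(IR). PTGER2, a prostaglandin E receptor, had a log2 fold change of -1.75.

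Of 70 ion channel genes 31 rose (44.3%) and 11 fell (15.7%), against 24.8% and 22.4% of all genes tested (median 0.35). P2RX6, of the ATP-gated channels, rose from 0.512, 0.3 and 0.372 to 8.19, 8.15 and 6.33 CPM, and the potassium channel genes KCNC4 and KCNMB4 by 3.08 and 3.23. The potassium channel genes KCNK2 and KCNQ5 fell, with log2 fold changes of -3.68 and -2.55. Among axon guidance families, 13 of 28 semaphorins, plexins and neuropilins rose (46.4%) and 2 fell (7.14%). SEMA4F (1.94), SEMA3E (1.86) and SEMA6D (1.5) led the rises, and 1 fall was called with upper-quartile scaling or without Prol replicate 2. Of 27 ephrins, Eph receptors, slits, robos and netrins 11 rose (40.7%) and 9 fell (33.3%), against 24.8% and 22.4% of all genes tested. The repellent SLIT2 read 5.63, 5.45 and 4.54 CPM in Prol and 24.2, 27.7 and 22.5 CPM in Sen(IR), its receptor ROBO2 6.78, 6.57 and 6.66 and 23.3, 22.2 and 22.7 CPM, and NTN1, the guidance factor netrin, 0.298, 0.0429 and 0.149 and 3.43, 2.51 and 2.65 CPM. SLIT2 and ROBO2 were thus both higher in all 3 Sen(IR) libraries. Leading falls of the list were EPHA1 (-1.79), EFNB3 (-1.68) and UNC5C (-1.35).

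Clustered protocadherins, adhesion proteins best known from neurons and encoded in neighbouring clusters on chromosome 5, had the largest median of the lists, histones and the lists of marker checks aside. Of 54 genes 41 passed the filter, and 32 of those rose and 0 fell, with a median log2 fold change of 1.41. The median was 1.36 with the member at the floor entered as a bound. The list had 1 member called lower without Prol replicate 3 or Sen(IR) replicate 2. The leading rises were PCDHB9 (0.256, 0.601 and 0.706 CPM in Prol and 4, 4.31 and 3.87 in Sen(IR)), PCDHGA4 (4.14, 4.12 and 3.16 and 24.8, 26.1 and 26.7 CPM) and PCDHB6 (0.384, 0.3 and 0.335 and 1.51, 1.61 and 1.37 CPM). Members of the gamma cluster share their last exons, 44.5% of the exon length in PCDHGA4, so they cannot be read as separate genes, and members low in Prol could pass the filter only through their level after irradiation.

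Of 18 fibril-forming and fibril-associated collagens 6 rose and 5 fell (median 0.06), and the rises were 2 without Prol replicate 3. With shares of 33.3% and 27.8% the list stood near all genes tested (24.8% and 22.4%), as did the basement membrane list (36.4% and 27.3%), so the counts say little about either list. COL5A3, a minor chain of type V collagen, read 17.9, 21.9 and 18.5 CPM in Prol and 1.78, 1.52 and 2.16 CPM in Sen(IR), COL6A3 fell by 1.00 from 3565 ± 483 to 1785 ± 126 CPM, and COL24A1 rose by 1.19. Of 22 basement membrane components 8 rose and 6 fell. The laminin chains LAMB3, LAMA2 and LAMA5 rose by 1.62, 1.37 and 1.20, LAMA2 from 21.5, 32.3 and 20.7 to 64.8, 67.9 and 59.7 CPM. The network collagen COL4A1 read 3279, 3402 and 3006 CPM in Prol and 1209, 1267 and 1193 CPM in Sen(IR), and NID1, the linker nidogen, and COL15A1 fell, with log2 fold changes of -1.58 and -2.21. LAMB3, LAMA2 and LAMA5 were thus higher, and COL4A1, NID1 and COL15A1 lower, in each Sen(IR) library than in any Prol library, whereas 8 members of the list were not called.

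Of 23 elastic fibre and microfibril genes 5 rose (21.7%) and 10 fell (43.5%), with a median of -0.17, so the loss of ELN was not shared by the whole list. EMILIN2 (-1.89) and LOXL3 (-1.79) followed ELN among the falls, whereas the crosslinking enzyme genes LOXL4 and LOX rose by 1.61 and 0.84, LOX from 541, 498 and 551 to 909, 951 and 988 CPM. LTBP3, which holds latent TGF-beta in microfibrils, rose by 1.31. Among 21 enzymes and chaperones that modify collagen 7 rose and 7 fell, 33.3% each, near the 24.8% and 22.4% of all genes tested. The hydroxylases P3H2, PLOD2 and P4HA1 rose by 1.43, 1.33 and 1.22, with PLOD2, a lysyl hydroxylase, at 359, 348 and 352 CPM in Prol and 872, 891 and 905 CPM in Sen(IR). PCOLCE, which enhances cleavage of the C-propeptide, read 133, 164 and 150.2 CPM in Prol and 15.6, 19.7 and 19.9 CPM in Sen(IR), and the collagen chaperone SERPINH1 and the N-propeptidase ADAMTS2 fell, with log2 fold changes of -1.40 and -1.37. The members named here are the largest rises and falls of the list, so their opposite directions follow from that choice, and 7 members were not called.

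Of 30 proteoglycan and hyaluronan genes 9 rose (30%) and 5 fell (16.7%), with a median of 0.36, near the 24.8% and 22.4% of all genes tested. HAS2, a hyaluronan synthase, read 21.4, 13.9 and 19.7 CPM in Prol and 1.82, 2.23 and 2.26 CPM in Sen(IR) (edgeR adjusted p = 1.1e-12), and CEMIP, which breaks hyaluronan down, fell by 1.37 from 716 ± 67.7 to 278 ± 8.23 CPM. Fibromodulin (FMOD) and the glypican GPC4 rose by 1.66 and 1.56. Of 28 adhesive and matricellular glycoproteins 12 rose (42.9%) and 11 fell (39.3%), against 24.8% and 22.4% of all genes tested. TNC, or tenascin C, read 440.1, 446 and 422 CPM in Prol and 61.9, 71.5 and 69.4 CPM in Sen(IR) (-2.69 ± 0.06, edgeR adjusted p = 9.9e-20), and THBS1, or thrombospondin 1, 3311, 3242 and 3168 and 1178, 1288 and 1194 CPM. SVEP1, a large adhesion protein, read 189, 245 and 170.3 and 516, 578 and 508 CPM. TNC and THBS1 were thus lower, and SVEP1 higher, in each Sen(IR) library than in any Prol library.

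Most contractile genes of the smooth muscle type fell. Of 24 genes 15 fell and 1 rose, with a median log2 fold change of -0.81 against 0.01 over all genes tested. ACTG2, an actin of smooth muscle, read 546, 484 and 617 CPM in Prol and 61.7, 60.9 and 62.5 CPM in Sen(IR) (-3.15 ± 0.08, edgeR adjusted p = 3.1e-19). ACTA2, alpha smooth muscle actin and the marker of myofibroblasts, read 543, 479.8 and 591 and 70.4, 75.9 and 72 CPM, with 36.2% of its exon length shared with neighbouring genes. CNN1, calponin, fell by 2.17, and the member that rose was ITGA7, a laminin-binding integrin (1.45, 1.29 and 1.23 to 3.29, 3.22 and 3.14 CPM). Of 28 effectors of TGF-beta, YAP and MRTF, which respond to tension and growth factors, 9 fell (32.1%) and 1 rose (3.57%). Over all genes tested 22.4% fell and 24.8% rose. ANKRD1, a YAP target, and TEAD4, the partner of YAP, fell, with log2 fold changes of -2.37 and -2.15, SMAD6, an inhibitor of BMP signals, fell by 1.84, and SMAD3 rose by 0.70.

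Serum response factor is known to bind the CArG box in contractile genes. Promoters were at hand for 19 of the 24 genes with 40 starts, and 8 of these (20%) held a CArG box on either strand, against 1.17% of promoters of genes tested and 1.29% of all. Starts of the same gene were counted separately, here as in the other promoter counts. The share is that of the list, which includes members that did not fall. The promoters of ACTG2 (chr2:73892878-73893027, plus strand) and CNN2 (chr19:1026478-1026627, plus strand), the members with the largest called changes among those with a box in the window shown, are given in the same way with the boxes in capitals. CNN2, another calponin, fell by 1.20.
ACTG2: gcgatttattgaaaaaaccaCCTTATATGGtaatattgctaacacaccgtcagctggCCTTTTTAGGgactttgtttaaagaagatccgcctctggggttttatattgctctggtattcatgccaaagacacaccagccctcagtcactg
CNN2: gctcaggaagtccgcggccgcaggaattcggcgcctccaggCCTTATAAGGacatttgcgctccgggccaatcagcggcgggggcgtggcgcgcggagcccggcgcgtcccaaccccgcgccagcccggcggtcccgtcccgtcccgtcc
The boxes of ACTG2 began 110 and 73 bases, and that of CNN2 89 bases, before the start.

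Lysosomal genes rose broadly. Of 45 hydrolases and activators 33 rose and 2 fell, with a median log2 fold change of 0.93, and of 34 lysosomal membrane proteins and proton pump subunits 24 rose and 0 fell, with a median of 0.67, against 0.01 over all genes tested. CTSS, a cathepsin, read 1.79, 1.8 and 2.01 CPM in Prol and 28.3, 26.4 and 27.5 CPM in Sen(IR) (3.87 ± 0.11, edgeR adjusted p = 3e-18). FUCA1, a fucosidase, read 1.58, 2.45 and 1.15 and 16.7, 16 and 17.8 CPM, and CTSO, another cathepsin, 15.6, 17.7 and 14.7 and 91.9, 98.8 and 99.5 CPM. The sialic acid exporter SLC17A5, the pump subunit ATP6V0A1 and OSTM1, a partner of a chloride transporter, rose by 1.57, 1.53 and 1.39. PPT1, a thioesterase, was an exception at 116, 116 and 127 CPM in Prol and 51.9, 51.3 and 50.8 CPM in Sen(IR), and GUSB fell by 0.54, a call lost with upper-quartile scaling (-0.42) and without Prol replicate 3 (-0.47).

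Lysosomal genes are known to carry the CLEAR element, searched here in its palindromic E-box form TCACGTGA. It stood in 5 of 37 promoters (13.5%) of 29 hydrolase genes with a promoter at hand and in 4 of 37 (10.8%) of 26 membrane and pump genes, against 1.57% of promoters of genes tested and 0.98% of all. Among all genes called higher it stood in 61 of 4285 promoters (1.42%), and among those that rose by more than 3 on the log2 scale in 2 of 362 (0.552%). The promoters of the hydrolases with the element and the largest changes are GAA, acid alpha-glucosidase, which rose by 1.65 (chr17:80101451-80101600, plus strand), and PLBD2, a phospholipase B-like protein, which rose by 1.36 (chr12:113358457-113358606, plus strand).
GAA: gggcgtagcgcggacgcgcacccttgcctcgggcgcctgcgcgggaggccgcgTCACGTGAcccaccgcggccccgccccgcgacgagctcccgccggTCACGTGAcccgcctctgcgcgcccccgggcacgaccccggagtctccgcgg
PLBD2: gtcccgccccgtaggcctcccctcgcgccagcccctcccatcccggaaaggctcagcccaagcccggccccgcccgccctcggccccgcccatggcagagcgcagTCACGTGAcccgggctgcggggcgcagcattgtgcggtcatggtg
The elements of GAA began 77 and 32 bases, and that of PLBD2 25 bases, before the start.

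Central carbon genes changed little as lists, with a few large exceptions. Of 28 genes on the route from pyruvate through citrate to acetyl-CoA 5 rose (17.9%) and 3 fell (10.7%), 20 were not called, and the median was -0.03. Both shares lie below the 24.8% and 22.4% of all genes tested. Besides PDK4, its paralog PDK2 rose by 1.32, with 38.6% of its exon length in SAMD14, and ACO1, the cytosolic aconitase, by 0.75. IDH2, the mitochondrial isocitrate dehydrogenase, PDP1, the phosphatase opposed to the PDK enzymes, and CS, citrate synthase, fell, with log2 fold changes of -1.07, -1.05 and -0.82, and the falls in the list were 5 without Prol replicate 3. CS read 264, 246 and 275 CPM in Prol and 148, 154 and 144 CPM in Sen(IR). Of the carriers and the enzyme the study addresses, the citrate carrier SLC25A1 rose from 58.2, 63.5 and 62.6 to 101, 94.4 and 90.7 CPM (0.63 ± 0.06), MPC2 of the pyruvate carrier by 0.55, a call lost without Prol replicate 2 (0.48), and MPC1 (-0.15) and ACLY, the ATP-citrate lyase (0.14), were not called. ACLY (edgeR adjusted p = 0.014) missed only the limit on size. The paper reports higher mRNA of MPC1, MPC2, SLC25A1 and ACLY across models of senescence that include irradiation.

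Of 25 glycolysis and lactate genes 5 rose (20%) and 3 fell (12%), below the 24.8% and 22.4% of all genes tested (median 0.03). HK2, a hexokinase, rose from 79.2, 65.8 and 73 to 200.5, 199 and 192 CPM, and PFKP, a phosphofructokinase, ENO1, enolase, and LDHA fell, with log2 fold changes of -1.51, -0.95 and -0.63, with ENO1 at 1764, 1732 and 1874 CPM in Prol and 930.2, 940.2 and 906 CPM in Sen(IR). Among 82 nuclear-encoded subunits of the respiratory chain and ATP synthase 73 were not called, 1 rose and 8 fell, with a median of -0.16. Those counts depended on the processing: 3 rose and 2 fell with upper-quartile scaling, 13 fell without Prol replicate 1, and 5 fell and 2 rose without Prol replicate 3. COX7A1, a subunit isoform of muscle, was the rise, from 4.52, 4.89 and 5.8 to 10.6, 11.5 and 14.4 CPM, and cytochrome c (CYCS) and CYC1 led the falls at -0.69 and -0.66.

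Most genes of nucleotide and one-carbon synthesis fell. Of 34 nucleotide synthesis genes 26 fell and 5 rose, with a median of -1.04. TK1, the thymidine kinase of S phase, read 104, 86.2 and 108 CPM in Prol and 8.36, 6.92 and 9.02 CPM in Sen(IR), and RRM2, the S phase subunit of ribonucleotide reductase, 618, 504 and 622 and 58.9, 53 and 55.4 CPM (edgeR adjusted p = 4.9e-19). Their counterparts outside S phase went the other way: the mitochondrial kinase TK2 rose by 1.44 and the p53-induced subunit RRM2B by 1.77, from 58.1, 58.1 and 54 to 188, 188 and 205 CPM. PFAS, of purine synthesis, fell by 2.54. Of 21 serine, glycine and one-carbon genes 12 fell and 0 rose (median -0.80), where 1 rose with upper-quartile scaling or without Prol replicate 2 or Sen(IR) replicate 3. SHMT1, which passes carbon from serine to folate, fell by 2.74, and PHGDH, which opens serine synthesis, fell from 74.2, 102 and 87.4 to 22.3, 20.9 and 21 CPM. Proliferating cells use these pathways to copy DNA, and the MCM2 and PCNA genes of replication fell beside them, with log2 fold changes of -2.63 and -1.64.

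**Figure D5:**
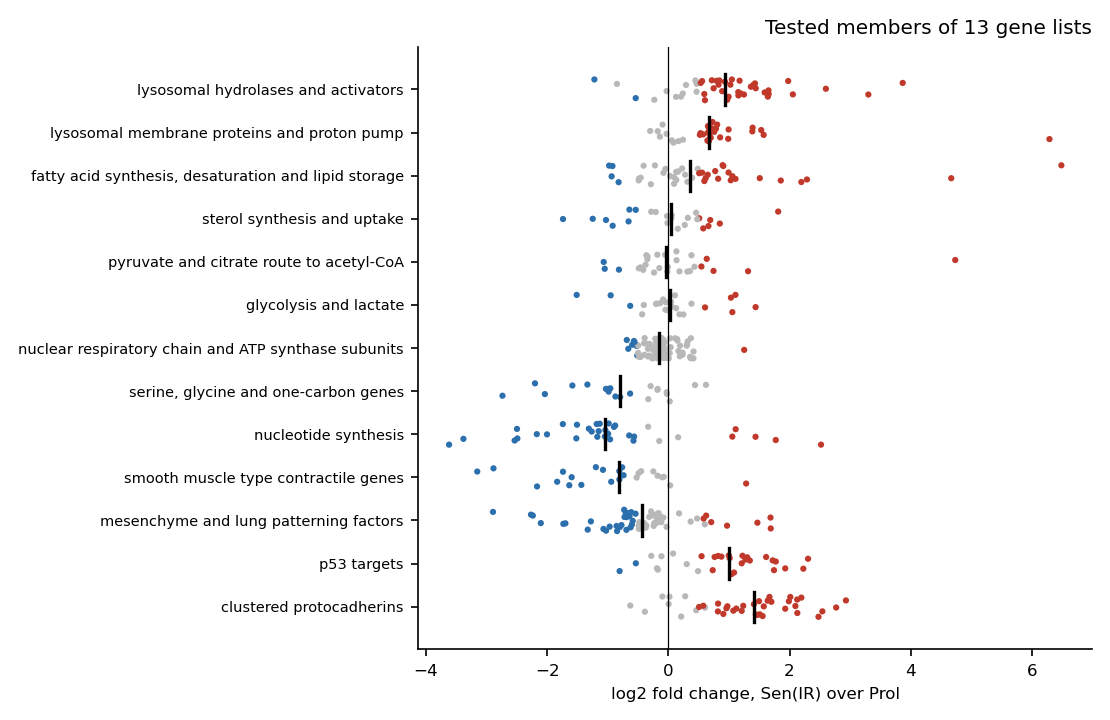
Log2 fold change in Sen(IR) over Prol (x axis) of each tested member of 13 gene lists (rows), red when called higher, blue when called lower and grey when not called, with a bar at the list's median. The lysosomal lists have medians of 0.93 and 0.67, nucleotide synthesis -1.04 and the contractile list -0.81, whereas the respiratory chain, glycolysis and pyruvate lists cluster around 0.

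Among lipid genes, those of fatty acids and lipid storage rose more often than they fell. Of 42 fatty acid and lipid storage genes 19 rose (45.2%) and 4 fell (9.52%), with a median of 0.35. ACSL4, which activates polyunsaturated fatty acids, read 249, 270.0 and 241 CPM in Prol and 1140, 1115 and 1226 CPM in Sen(IR) (2.19 ± 0.06, edgeR adjusted p = 6.1e-19). DGAT2, the final enzyme of triglyceride synthesis, read 0.0427, 0 and 0.335 and 3.47, 3.03 and 4.22 CPM, and ACSL5 1.79, 2.15 and 1.15 and 8.36, 8.82 and 7.45 CPM. SCD, the desaturase that makes oleate, fell by 0.98 from 334, 568 and 365 to 214, 219 and 211 CPM, with Prol replicate 2 the highest. Of 24 sterol genes 6 rose and 7 fell (median 0.05), shares close to the 24.8% and 22.4% of all genes tested, with ACAT2 (-1.74), EBP (-1.25) and the sterol sensor INSIG1 (-1.03) lower and SREBF2, the regulator of the pathway (0.69), SC5D (0.85) and TM7SF2 (1.81) higher.

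Among those tested, redox and detoxification genes rose more often than they fell. Of 38 glutathione, thioredoxin and peroxide genes 15 rose (39.5%) and 3 fell (7.9%), 1 of them with upper-quartile scaling (median 0.32). After SOD2 the rises were led by TXNIP, the thioredoxin inhibitor that also limits glucose uptake, at 222, 250.1 and 228 CPM in Prol and 1386, 1359 and 1342 CPM in Sen(IR), and by the extracellular SOD3 (1.92), whereas glutathione reductase (GSR) fell by 0.64. Of 121 aldehyde dehydrogenase, aldo-keto reductase and cytochrome P450 genes 47 were tested. Of these 22 rose (46.8%) and 3 fell (6.38%), with a median of 0.51, against 24.8% and 22.4% of all genes tested. Members absent from Prol could pass the filter only through their level in an irradiated group, so these shares describe the genes tested. ALDH1A1, of retinoic acid synthesis, read 0.0853, 0.515 and 0.149 CPM in Prol and 3.92, 5.21 and 6.72 CPM in Sen(IR). CYP1A1, the classical target of the aryl hydrocarbon receptor, did not exceed 3 counts in any Prol library and was at least 8.94-fold higher in Sen(IR), at 0.89, 1.47 and 0.932 CPM.

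Of 486 solute carriers 243 were tested, 107 rose (44%) and 33 fell (13.6%), with a median of 0.49. Over all genes tested 24.8% rose and 22.4% fell. The organic anion transporter SLCO2B1 was at most 3 counts in each Prol library and read 6.41, 5.55 and 6.08 CPM in Sen(IR), at least 49-fold higher. Amino acid transport led the falls: SLC7A5, the light chain of the leucine transporter, read 119, 139 and 119 CPM in Prol and 32.2, 26.8 and 26.2 CPM in Sen(IR), and the glutamine transporter SLC38A5 32.7, 34.4 and 34.3 and 5.83, 7.11 and 5.05 CPM. SLC8A1, the sodium and calcium exchanger, fell by 1.99. Carriers absent from Prol could pass the filter only through their level in an irradiated group, so the list's shares are descriptions of the genes tested.

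Transcription factors of mesenchyme and lung development fell more often than they rose. Of 89 such genes 60 were tested, 27 fell (45%) and 7 rose (11.7%), with a median of -0.44. Over all genes tested 22.4% fell and 24.8% rose. GLI1, the effector and target of hedgehog signals, read 1.88, 1.37 and 1.34 CPM in Prol and 0.267, 0.332 and 0.343 CPM in Sen(IR), FOXC2 6.06, 5.71 and 8.37 and 1.33, 1.23 and 1.72 CPM, and the homeobox gene PRRX2 11.7, 14.4 and 14.1 and 3.34, 2.84 and 3.14 CPM. SOX4 rose from 55, 80.6 and 60.9 to 179, 176 and 189 CPM, and FOXP2 rose by 1.69. All named members that fell were lower, and all that rose were higher, in every Sen(IR) library.

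Of 18 Kruppel-like and SP factors 8 fell (44.4%, and 5 genes with upper-quartile scaling) and 3 rose (16.7%). KLF2, a factor of quiescence and flow response, fell by 2.38 from 9.72, 4.64 and 9.18 CPM to 1.42, 1.47 and 1.62 CPM, and KLF12 and KLF7 had log2 fold changes of -1.12 and -1.07, while KLF10 and KLF11, early targets of TGF-beta, rose by 0.61 and 1.05. Of 23 bHLH repressors and circadian factors 11 fell (47.8%) and 3 rose (13%). ID4, which blocks bHLH factors, read 8.06, 8.71 and 8.88 CPM in Prol and 0.756, 0.901 and 0.785 CPM in Sen(IR), and PER3 of the clock fell by 1.53, against rises of BHLHE41, already given, and CRY2 (1.05). Of 31 nuclear receptors 7 rose (22.6%), led by RORA (1.82), NR4A2 (1.76) and the mineralocorticoid receptor NR3C2 (1.66). Another 10 (32.3%) fell, among them THRB (-1.75), NR4A1 (-1.67) and the vitamin D receptor VDR (-0.80). These shares lie near the 24.8% and 22.4% of all genes tested. The related NR4A1 and NR4A2 went in opposite directions, with NR4A2 at 8.91, 15.1 and 9.78 CPM in Prol and 39.5, 33.5 and 41.1 CPM in Sen(IR) and NR4A1 at 11.5, 13.9 and 12.7 and 5.03, 3.37 and 3.48 CPM. Among 486 genes named ZNF, 74 rose (15.2%) and 109 fell (22.4%, and 69 genes with upper-quartile scaling), and 303 were not called. The share of falls equals the 22.4% of all genes tested, and the share of rises lies below their 24.8%. ZNF391 led the rises (0.81, 1.29 and 0.706 to 8.5, 6.97 and 7.8 CPM), and ZNF367 was a leading fall (-2.86).

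Secreted regulators outside the SASP families also changed. Of 26 BMP, activin and GDF ligands and antagonists 13 rose (50%) and 5 fell (19.2%), with a median of 0.58. FST was the largest fall, and BMP5 read 22.6, 49.8 and 26 CPM in Prol and 9.65, 9.01 and 10.5 CPM in Sen(IR), while the antagonist BMPER and the pseudoreceptor BAMBI rose by 1.71 and 1.64. Of 21 WNT ligands, antagonists and related genes 8 rose (38.1%) and 4 fell (19.05%), against 24.8% and 22.4% of all genes tested. RSPO2, which amplifies WNT signals, read 0.171, 0.172 and 0.186 CPM in Prol and 4.4, 4.27 and 5.1 CPM in Sen(IR), and WNT16 22.3, 21.3 and 25.9 and 106, 94.7 and 103 CPM. WNT2, a ligand of lung mesenchyme, read 8.66, 15.4 and 11.8 and 1.47, 1.75 and 1.27 CPM, and the antagonist DKK1 116, 82.3 and 120.1 and 27, 24.4 and 27.9 CPM. Of 38 other hormones and peptides 17 rose (44.7%) and 12 fell (31.6%), both above the shares of all genes tested. ANGPTL4, an inhibitor of lipoprotein lipase, read 1.66, 0.902 and 1.41 CPM in Prol and 25.4, 19.8 and 22.6 CPM in Sen(IR), OLFM1 rose by 4.53 and the granin CHGB by 3.68, and pleiotrophin (PTN) fell from 117, 122 and 136 to 33.9, 33.6 and 39.7 CPM. RSPO2, WNT16 and ANGPTL4 were high in all Sen(IR) libraries and WNT2, DKK1 and PTN low.

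Among long noncoding RNAs rises outnumbered falls. Of 1850 genes annotated as lncRNA among those tested, 534 (28.9%) rose and 229 (12.4%) fell, with a median log2 fold change of 0.31, against 3281 (24.6%) and 3218 (24.2%) of 13312 protein-coding genes with a median of -0.02. They held 0.667 to 0.688% of the counts in Prol libraries and 0.842 to 0.860% in Sen(IR) libraries. The levels of lncRNAs are low, and among protein-coding genes the fifth with the lowest mean level also had more rises (44%) than falls (14.8%) and a median of 0.61. Of 738 pseudogenes 140 rose and 142 fell.

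The largest rise of a lncRNA over the level limit was ENSG00000226087, a gene without a symbol at chr2:47225781-47240886, with 1.02, 1.12 and 1.93 CPM in Prol and 18.2, 15.3 and 16.5 CPM in Sen(IR) (3.59 ± 0.18, edgeR adjusted p = 4.9e-14). DPP4-DT, the divergent transcript at the DPP4 promoter, read 0.554, 1.93 and 0.818 and 9.74, 7.63 and 6.87 CPM, with 28.1% of its exon length shared, mainly with DPP4, so that the reads of the 2 genes are not separable there. LINC02035, IRF1-AS1, PSMG3-AS1 and GASK1B-AS1 rose by 2.67, 2.38, 2.25 and 2.13. Of the lncRNAs called lower, PRR11-AS1 and ENSG00000261061 lie with all their exon bases, and ENSG00000187951 with 99.1%, in other genes, PRR11 and CENPN for the former pair, and their reads cannot be assigned. ENSG00000250899 and ENSG00000280206, with little or no shared exon length, fell, with log2 fold changes of -2.29 and -1.95.

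Of 46 widely studied lncRNAs 12 rose and 10 fell (median -0.10), near the 24.8% and 22.4% of all genes tested. NEAT1, the scaffold of nuclear paraspeckles (chr11:65422774-65445540), read 235, 214 and 226 CPM in Prol and 801, 800.5 and 792 CPM in Sen(IR) (1.82 ± 0.12, edgeR adjusted p = 1.3e-11). PURPL, a lncRNA induced by p53, read 0.213, 0.344 and 0.558 and 5.07, 4.6 and 4.36 CPM. CARMN, which is known from smooth muscle, read 6.74, 6.61 and 7.29 and 0.445, 0.379 and 0.343 CPM and fell beside the contractile genes, and DLEU2 read 5.8, 7.26 and 6.77 and 1.02, 0.758 and 1.23 CPM. Of 28 host genes of small nucleolar RNAs 11 fell (39.3%) and 5 rose (17.9%, and 3 genes without Sen(IR) replicate 3). SNHG3 read 67, 53.1 and 72 CPM in Prol and 19.7, 16.6 and 18.3 CPM in Sen(IR), and SNHG1 92.4, 72.5 and 96.7 and 26.7, 25.9 and 23.5 CPM. Of 28 host genes of microRNAs 9 rose and 7 fell, shares of 32.1% and 25% that also lie near those of all genes. MIR3142HG, the host gene that holds miR-146a, was at most 3 counts in every Prol library and at least 30.6-fold higher in Sen(IR) (4.14, 3.6 and 3.53 CPM), MIR210HG, the host of the hypoxia-linked miR-210, rose from 0.298, 0.386 and 0.409 to 4.05, 3.32 and 3.14 CPM, and MIR17HG, the host of a MYC-regulated cluster, read 1.53, 1.42 and 2.42 and 0.223, 0.0474 and 0.49 CPM. The microRNAs themselves were not measured in these libraries.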

How the data were processed

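RNA of 12 MRC5 libraries (4 groups of 3) was sequenced as paired ends. Per the methods and processing notes, the authors used Trimmomatic 0.36 for trimming, STAR 2.5.2b for alignment to GRCh38 and featureCounts (Subread 1.5.2) for unique reads in exons. The deposited table holds these raw counts. The annotation release and strandedness are not given in the sources used here, so genes with overlapping exons can share reads. Positions, exon lengths and overlaps came from GENCODE v44 (GRCh38), which holds 56410 of the 57500 identifiers.

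Counts were fitted in R 4.3.3 with edgeR 4.0.16 (filterByExpr, TMM, glmQLFit, glmQLFTest) over all 12 libraries without a replicate term. The contrast was Sen(IR) minus Prol, with Benjamini-Hochberg adjustment over the 16251 genes tested, which hold 99.9% of the counts. The common dispersion of 0.00374 equals a coefficient of variation of 6.12%. The SE is the absolute log2 fold change divided by the square root of F. Floors cover counting error only. On simulated data with 200 changed genes among 15862, edgeR recovered 183 (91.5%) with 1 false call and DESeq2 1.42.0 recovered 179 (89.5%) with 0. The simulation changed a far smaller share of genes than was called here and gave every gene the same dispersion. Its rate of false calls therefore does not carry over to these data.

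Gene lists, motifs and members were chosen with earlier results of these data known, and the lists were not used in a set test. Named were the 10 most abundant genes of each group (per count and per kilobase), the 12 largest changes in each direction outside SASP and histone genes and the 8 among lncRNAs (mean log2 CPM over 1, no overlap), the 10 largest differences in CPM, up to 3 called genes per list and direction with at least 1 CPM in a group, the arrest genes, and genes the study measures. GDF15, MDM2, CDH5, PECAM1, CNN2, GAA and PLBD2 lie outside this rule and were named after their values were seen. Promoters came from RefSeq (GRCh38.p14), and those on chromosome 8 were left out when promoters were chosen for printing. Alternatives were DESeq2, RLE and upper-quartile scaling, no low-count filter, the 6 libraries alone, a replicate block, other call limits and leaving out each library. SASP genes other than IGFBP5, histone genes and the inhibitor groups were not described here, and some genes that the rule names are not reported here.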

Additional observations from a re-analysis of the deposited data

How the results depend on the processing

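The count of 7677 called genes stayed between 7387 and 8221 with DESeq2 (7562), RLE scaling (7670), no low-count filter (8221), upper-quartile scaling (7668), the 6 libraries alone (7635), the limit on the unadjusted p (7811) and each library left out in turn (7387 to 7709). With the log2 fold change required to exceed 1 in size there were 4030 genes (2387 higher and 1643 lower), and without a limit on size 11158, where the lower genes moved most, to 5611. No gene called in the fit as reported was called in the opposite direction under any of these settings. Upper-quartile scaling raised the median log2 fold change of all genes from 0.01 to 0.14, so list counts there are relative to that shift, and EEF1A1 turned from -0.10 to 0.018 with it, neither value called. Of 3696 values for 308 named genes, 3672 kept their side of the limits, 19 lost and 4 gained a call. Of the counts for 46 lists 1276 stayed within 1.5 times and 104 did not, 54 of these with the limit of 1 and 25 without a limit. Correlations between the deviations of same-numbered Prol and Sen(IR) libraries were -0.00112, -0.00554 and 0.0423. Those of differently numbered libraries ran from -0.0246 to 0.0262. With 3 libraries per group these values cannot decide whether the numbers pair the samples. A fit with a replicate block called 7649 genes. Genes at a few counts were limited by depth, with 0.123 and 0.141 CPM as floors.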

Other observations

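Keratins, intermediate filaments of epithelia, mostly stayed below the filter: 8 of 50 genes passed, of which 1 rose and 3 fell. KRT18, the most abundant of those named, read 50.9, 47.4 and 62 CPM in Prol and 14.9, 16.1 and 17.9 CPM in Sen(IR) and fell by 1.72, and KRT80 read 6.36, 4.51 and 5.39 and 1.16, 1.99 and 1.57 CPM. The rise, of KRT15 (1.20), was lost without Prol replicate 2 (0.81).

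Protein-coding genes were also sorted into 5 groups of equal size by the distance from the start to the end of the gene. In the group of the longest genes 28.7% rose and 20.6% fell, with a median log2 fold change of 0.06, and in the group of the shortest genes 24.8% rose and 25.35% fell, with a median of -0.04. These values are a description, and no difference between the groups was tested.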
